A study of Mus musculus with 73 samples.

Results

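The sites described here are 693 stretches of mouse DNA, each 400 bp long, where FoxA proteins bind in the liver. These sites were partly methylated in control hepatocytes. They were chosen from whole-genome bisulfite sequencing (WGBS) by 2 criteria. The site had to be on the deposited list of hyper-methylated sites, and its mean level in the 2 control libraries had to be 40% or more. They made up 693 of the 33302 FoxA sites measured, or 2.08%, and they lay in 650 separate regions because some sites overlap. The list itself held exactly the sites whose mean level in the 2 libraries of developmental nulls exceeded that of the 2 controls by more than 20 points. A high developmental null level and a control level of 40% or more are therefore what chose these sites, and they are given below as a description only.

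Foxa1 and Foxa2 encode forkhead proteins known as pioneer factors, which can bind their sites in closed chromatin and make room for other regulators in the liver. Methylation of cytosine in CpG pairs is generally high across the genome and low at active enhancers and promoters. The level at a binding site is the share of DNA copies that carry the mark, averaged over its cytosines. HNF6, encoded by Onecut1, is another transcription factor of hepatocytes that often binds near FoxA proteins. Partial methylation, as at these sites, can mean that copies differed, that positions within a site differed, or both, and these were not told apart.

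The developmental nulls were Foxa1L/L;Foxa2L/L mice with the Alfp Cre transgene, which acts during liver development, and were 8 weeks old in WGBS, like the WGBS controls. The adult nulls were mice of the same floxed genotype that received, at 8 weeks of age, an AAV8 virus with Cre under the hepatocyte-specific Tbg promoter for 1 month. The controls carried the same floxed alleles and no Cre. WGBS was done on hepatocytes purified on a gradient, with 2 libraries in each of the 3 groups. Reduced representation bisulfite sequencing (RRBS), which reads CpG-rich fragments, gave a level per 100 bp tile in 27 libraries. The age series paired 1 developmental null with 1 control at each of 4 ages, namely 20 days, 8 weeks, 4 months and 6 months. Mice of 8 weeks that had lost both Foxa1 alleles and 1 Foxa2 allele in development, and mice that had lost 1 allele of each gene in development, had 2 libraries each. Mice in which adult loss of Foxa1 and Foxa2 was combined with a Foxa3-/- background (triple nulls) had 3 libraries at 7 days after Cre, from mice 9 weeks old, and 2 at 13 days, from mice 12 weeks old. Their controls, 3 and 2 libraries, were also Foxa3-/- and were given GFP instead of Cre. Adult double nulls that went through partial hepatectomy, the surgical removal of part of the liver, had 3 libraries, and their controls, which received AAV GFP and the same surgery, had 2. Both groups were 12 weeks old. HNF6 chromatin immunoprecipitation (ChIP) peak lists came from 2 developmental null, 2 adult null and 3 control livers, of the same genotypes, ages and time after virus as in WGBS.

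The methylation tables hold no coverage, and the depth of a level is therefore unknown. Between 445198 and 622668 of 817277 tiles had a level in a given RRBS library. Levels of tiles outside every FoxA site averaged 60.04% in developmental nulls and 59.4% in controls of the age series. Where the labels name no animal, p-values measure the spread between libraries only. No tissue or cell type markers could be checked in methylation data, and the sites are named by position on the mm9 build, without gene names or sequence.

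In WGBS, the 693 sites were highly methylated in developmental nulls and close to 50% in controls. Their mean levels were 80.1% and 79.7% in the 2 developmental nulls, against 50.4% and 53.8% in the 2 controls. The middle 50% of the sites lay between 73.1% and 87.5% in developmental null 1, and between 43.0% and 57.1% in control 1. The mean level over both developmental nulls was 80% or more at 346 sites and 90% or more at 102, whereas it was under 65% at 26. Of the control means, 345 were between 40% and 50%, 198 between 50% and 60%, and 150 were 60% or more. The difference of means had a median of 26.1 points, with 293 sites between 20 and 25 points and 41 at 40 points or more.

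The 6 sites with the widest difference are the extremes of the values that chose the sites, and WGBS at 1 age shows no change over time. At chr17:86467725-86468124 the levels were 92.9% and 95.1% in developmental nulls, 42.2% and 58.2% in adult nulls, and 34.0% and 46.2% in controls. At chr18:13035413-13035812 they were 96.9% and 95.1% in developmental nulls, 36.8% and 56.4% in adult nulls, and 51.4% and 38.2% in controls. At chr9:66524446-66524845 they were 95.7% and 83.3% in developmental nulls, 46.7% and 26.7% in adult nulls, and 50% and 30.0% in controls. At these 3 sites every developmental null library lay above 80%, and the adult null and control libraries overlapped. The next 3 sites were chr10:58928391-58928790, chr17:86818533-86818932 and chr14:77149061-77149460, with differences of 48.7, 48.3 and 47.8 points. Their adult null means differed from the control means by 6.25, 6.22 and 0.934 points.

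The threshold of 40% cut through a continuous range. Just inside it lay chr9:66524446-66524845 (above), chr3:97566239-97566638 and chr12:119597519-119597918. At the chr3 site the levels were 64.8% and 70.8% in developmental nulls, against 41.1% and 38.9% in controls. At the chr12 site they were 67.5% and 61.4% in developmental nulls, against 46.5% and 33.6% in controls. Just outside it lay 3 listed sites. They were chr11:79382098-79382497 with 61.4% and 59.2% in developmental nulls against 42.4% and 37.6% in controls, chr5:148271454-148271853 with 73.5% and 66.0% against 41.9% and 38.1%, and chr10:40092961-40093360 with 74.1% and 70.3% against 43.8% and 36.1%. The sites on both sides of the threshold had like levels, and 546 of the 693 had 40% or more in each control.

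The sites were spread over all 19 autosomes in the table, with a share of FoxA sites between 1.54% on chromosome 9 and 2.79% on chromosome 18. Another FoxA site overlapped 177 of the 693 (25.5%), against 40.03% of all FoxA sites and 20.7% of the 4067 unlisted sites whose control level was 40% to under 80%. A further FoxA site had its middle within 2000 bp of 42.1% of the 693, against 54.2% of all FoxA sites and 35.7% of those unlisted ones. Among the 693, 80 overlapped another of them and 51 overlapped a listed site with a lower control level. Overlapping sites share reads, and these shares are given as descriptions with no test.

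After loss of Foxa1 and Foxa2 in adulthood, the sites had levels close to those of controls. The adult table, which had no sites on chromosomes 1 and 2, covered 571 of the 693. Their mean levels were 55.6% and 54.0% in the 2 adult nulls, against 50.4% and 53.9% in the 2 controls, and 80.3% and 79.7% in the 2 developmental nulls at the same 571 sites. Both adult nulls lay above both controls, by 2.63 points on average (two-sided exact permutation test, p = 0.333, the smallest that 2 against 2 libraries allow). The control libraries also chose the sites, which favours low control levels among them, so the sign of this difference is a description. The adult nulls had also received virus 1 month before, and no virus is named for these controls. Virus and the time after it therefore cannot be told apart from the loss here, nor in the HNF6 lists. At unlisted FoxA sites with a control level of 40% to under 80%, adult nulls averaged 55.6% ± 0.115 against 57.2% ± 0.959 in controls (SD, n = 2 each, 3514 sites), a difference of -1.59 points. Over all 28654 sites in both tables it was -1.42 points. The plot of WGBS levels sets the 3 groups side by side.

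**Figure D1:**
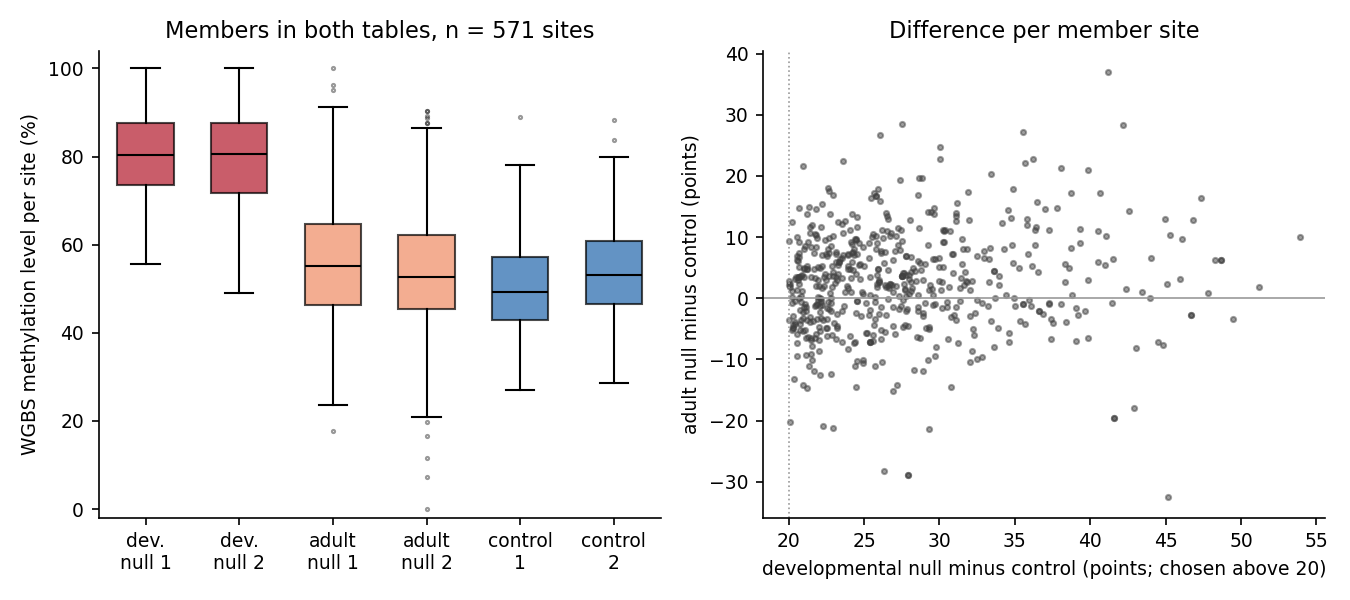
Left, WGBS methylation level in percent of the 571 sites in both tables in each library (box, middle 50% of sites with the median; whiskers, up to 1.5 times the box height; dots, sites beyond them). Right, adult null minus control against developmental null minus control, in points, 1 dot per site, with the 20-point limit of the list dotted. The developmental null medians are 80.3% and 80.5%, the adult null medians 55.2% and 52.7%, and the control medians 49.2% and 53.2%, and adult differences scatter on both sides of 0.

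Of the 571 sites, 357 were higher and 214 were lower in adult nulls than in controls by their means, and 436 (76.4%) were within 10 points of control. Adult nulls were more than 20 points above control at 14 sites and more than 20 points below it at 8. The adult null mean was nearer to the control mean than to the developmental null mean at 523 sites, a count that rests in part on the developmental values that chose them. limma's moderated test over all 28654 sites with Benjamini-Hochberg adjustment called none of the 571 sites (0% of all sites called in either direction), and 78 of them had an unadjusted p under 0.05, as did 8.02% of all sites. The adult null libraries lay fully above the controls at 149 of the 571 sites (26.1%), against 10.2% of all sites, and fully below them at 71 (12.4%), against 28% of all sites. These counts again use controls that took part in the choice.

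The level in adult nulls followed the control level of the site. Among members with a control mean of 40% to 50%, developmental nulls averaged 75.1%, adult nulls 47.6% and controls 45.2%, over 285 sites. Among those with a control mean of 50% to 60%, the averages were 81.2%, 56.4% and 54.6%, in the same order of groups, over 162 sites. Among those with 60% or more, they were 89.7%, 69.0% and 64.9%, over 124 sites. In each of these ranges the adult null mean lay nearer to the control mean than to the developmental null mean. That nearness is a description, because it rests in part on the control and developmental null values that chose the sites. The ranges are set on the same control values. The most methylated sites had least room left below 100%.

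Single sites departed from this in both directions without passing the test. The site with the highest adult difference was chr12:52949317-52949716, at 76.9% and 89.1% in adult nulls against 35.3% and 56.6% in controls, with 85.0% and 89.3% in developmental nulls (limma adjusted p = 0.522 for adult null against control). At chr8:96372688-96373087 the levels were 75.5% and 69.8% in adult nulls against 46.6% and 44.4% in controls. At both sites the adult null libraries lay above both controls, near or at the range of the developmental nulls. The other 2 highest were chr15:46353982-46354381 and chr16:78605828-78606227, with differences of 28.5 and 28.4 points.

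The widest difference the other way was at chr10:24191741-24192140, with 25.0% and 11.5% in adult nulls against 42.1% and 59.3% in controls, while developmental nulls had 91.7% and 100% (adjusted p = 0.553). At chr5:130196466-130196865 the levels were 24.1% and 32.7% in adult nulls against 56.0% and 58.5% in controls. Here the adult nulls lay below both controls, and thus on the other side of the controls from the developmental nulls. At chr13:44389049-44389448 the adult difference was -21.3 points. At chr10:19675151-19675550 the 2 adult nulls disagreed, with 87.0% and 0% against 74.3% and 69.2% in controls.

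RRBS libraries took no part in choosing the sites. The middle of 71 tiles lay inside them, in 47 of the 693 sites (6.78%). Of these tiles 4 had no value in any library, 20 had one in all 27 libraries, and 25, at 16 sites, had one in all 8 libraries of the age series. The age series therefore speaks for 16 of the sites.

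In the age series, the 25 tiles stayed highly methylated in developmental nulls at every age, whereas in controls they were lower at each older age. At 20 days the mean level was 73.7% in the developmental null and 69.0% in the control. At 8 weeks it was 79.2% in the developmental null and 51.2% in the control, at 4 months 69.5% and 48.4%, and at 6 months 72.0% and 37.6%, in the same order. Every developmental null library lay above every control library, although the 20-day control, at 69.0%, came next to the lowest null, that of 4 months at 69.5%. The group means were 73.6% ± 4.09 in developmental nulls and 51.5% ± 13.1 in controls (SD, n = 4 each), a difference of 22.1 points (two-sided exact permutation test, p = 0.0286, the smallest that 4 against 4 libraries allow; 0.171 after Benjamini-Hochberg adjustment over the 6 RRBS comparisons). The larger SD of the controls holds their differences between ages. That test does not pair the ages. With the libraries of each age taken as a pair, the exact sign-flip p was 0.125, the smallest that 4 ages allow. Without both 20-day libraries the difference was 27.3 points, where 3 against 3 libraries cannot give a p below 0.1.

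**Figure D2:**
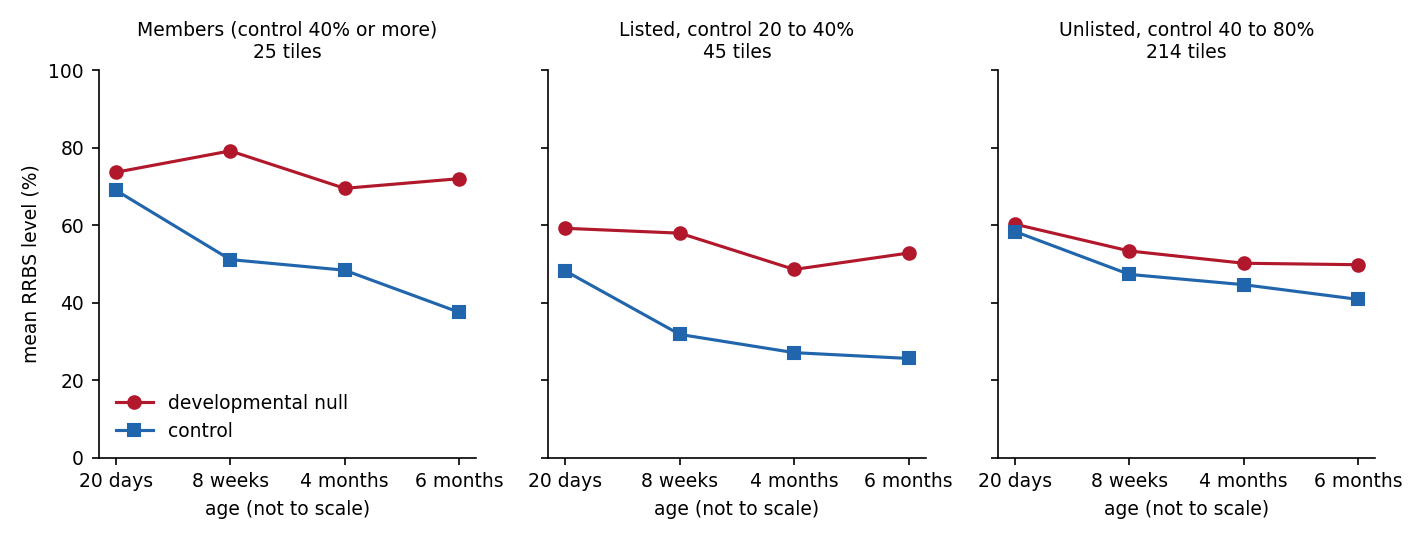
Mean RRBS level in percent by age in developmental nulls (circles) and controls (squares), 1 library per point, over the tiles measured in all 8 libraries. Left, tiles inside the sites described here; middle, listed sites with a control level of 20% to under 40%; right, unlisted sites with 40% to under 80%. In the left panel both genotypes begin near 70% at 20 days, and the control is at 37.6% at 6 months while the developmental null is at 72.0%.

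The number of tiles with a higher level in the developmental null than in the control of the same age was 16 of 25 in the 20-day pair, 24 in the 8-week pair, 22 in the 4-month pair and 24 in the 6-month pair. In developmental nulls the 6-month library differed from the 20-day library by -1.66 points on average, and 15 tiles were lower and 10 higher at 6 months. In controls the difference was -31.5 points, 23 tiles were lower and 1 was higher, and 17 were lower by more than 20 points. With 1 library per age and genotype, a difference between ages could not be tested, and age cannot be told apart from the library. Tiles below 50% numbered 4 of 25 in the 6-month developmental null and 17 of 25 in the 6-month control, against 3 and 5 of 25 in the 20-day libraries of the same genotypes.

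FoxA sites with a like control level that were not on the list had a narrower difference. By the rule of the list their WGBS difference was 20 points or less, so the comparison shows that sorting in a second assay. There, 214 tiles averaged 53.4% ± 4.84 in developmental nulls and 47.8% ± 7.52 in controls (SD, n = 4 each), a difference of 5.60 points. Within each library, the tiles of the sites described here exceeded the unlisted tiles by 20.2 points ± 5.25 in developmental nulls and by 3.73 points ± 5.70 in controls. The difference between these gaps was 16.5 points (two-sided exact permutation test, p = 0.0286, adjusted p = 0.0857 over 3 such comparisons). With ages taken as pairs, this difference between gaps had an exact sign-flip p of 0.125, the smallest possible. Against the listed sites with a control level of 20% to under 40%, which had a developmental null minus control difference of 21.5 points over 45 tiles, it was 0.611 points (exact permutation p = 0.771), and against listed sites below 20% it was 3.03 points (exact permutation p = 0.543). Between the partly methylated and the less methylated listed sites, no difference in the RRBS response in points was detected beyond the spread between libraries. The unlisted tiles had 58.4% at 20 days and 40.9% at 6 months in controls, so lower levels at older ages were measured there too.

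The control level at tiles inside the sites in other experiments gives a reading that is independent of the choice. Controls of the experiment at 7 days averaged 58.0% over 45 tiles (33 sites). Controls at 13 days averaged 55.0% over 29 tiles (22 sites), and controls after hepatectomy 53.0% over 46 tiles (30 sites). These means, in controls that chose nothing, lie near the WGBS control mean of 52.1% over all 693 sites. Single tiles ranged from 6.41% to 96.1% in controls at 7 days, so the means do not show that each tile was partly methylated. By the WGBS control level of the site, 17 tiles at sites of 40% to 50% averaged 68.4% ± 5.56 in developmental nulls and 49.5% ± 14.5 in controls of the age series (SD, n = 4 each). Another 7 tiles, at 4 sites of 60% or more, averaged 89.6% ± 4.79 and 59.2% ± 11.7, in the same order, and 1 tile lay between.

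Tile by tile, 24 of the 25 had a higher mean in developmental nulls and 1 had a lower one. limma called 2 of the 25 higher and none lower (all tiles: 0.176% higher, 0.0625% lower of 369462), and 21 of the 25, of which 20 were higher and 1 lower, had an unadjusted p under 0.05 (8.77% of all tiles). That fit takes no account of age, and with age as a block it called 8 of the 25 higher (0.582% of all tiles higher, 0.276% lower). Without the block, the count was 10 without the 20-day control and 1 without either the 8-week or the 6-month developmental null. In these 3 settings, in this order, 1388 of 375061, 745 of 387292 and 701 of 375987 of all tiles were called higher. All 4 developmental nulls lay above all 4 controls at 8 of the 25 (32%) and below them at 1 (4%), against 1.93% and 0.978% of all tiles and 7.01% and 0.935% of the 214 unlisted tiles. Tiles of 1 site share fragments, and many tiles elsewhere are near 0% or 100%, where the difference has less room.

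**Figure D3:**
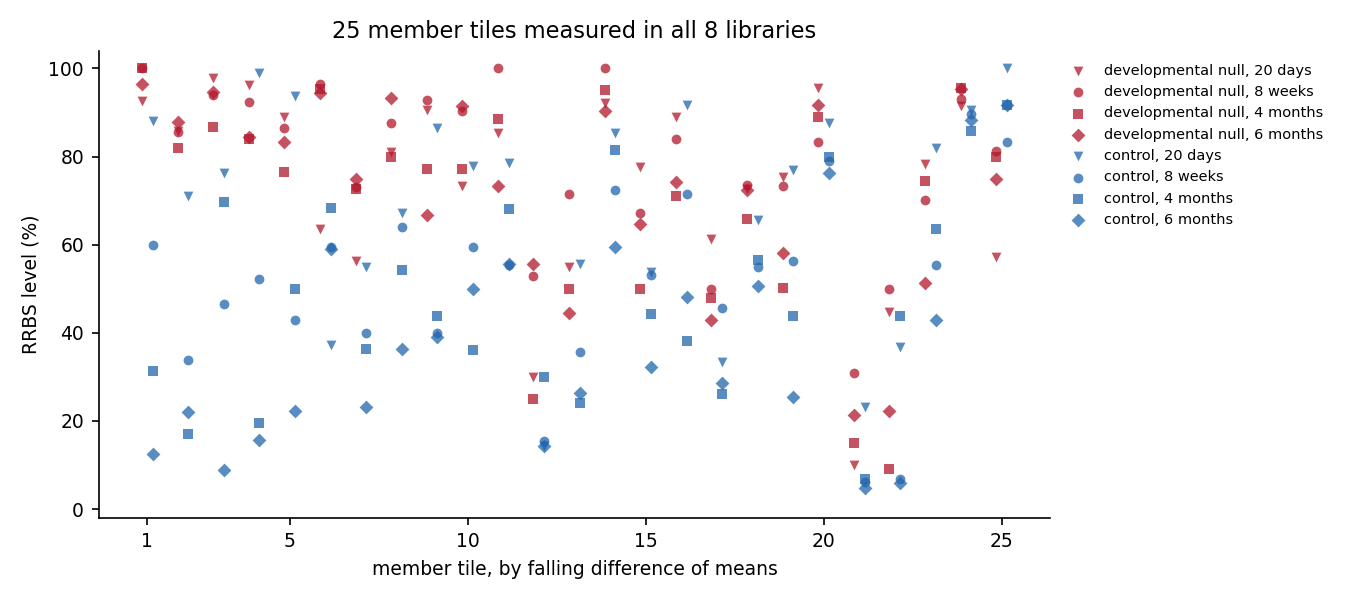
RRBS level in percent of each of the 25 tiles in developmental nulls and in controls, 1 mark per library with the marker giving the age, tiles ordered by the difference of means. The developmental null marks lie mostly above the control marks, the 20-day controls (blue triangles) often among the nulls, and only the last tile has a lower mean in developmental nulls.

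The 2 called tiles were at chr9:121862301-121862400 and chr17:86598501-86598600. Both calls rest on the spread over all 27 RRBS libraries. With the spread of only the 2 groups compared, neither tile was called, nor was any of all 369462 tiles. From the youngest to the oldest mice, the chr9 tile had 85.7%, 85.6%, 82.0% and 87.9% in developmental nulls, against 71.1%, 33.8%, 17.0% and 22.1% in controls of the same ages (difference 49.3 points, SE 7.93, limma adjusted p = 0.00755). The developmental nulls lay between 82.0% and 87.9%, and of the controls only that of 20 days was above 50%. The neighbouring tile of the same site, chr9:121862201-121862300, had the widest difference of a single tile per region by the naming rule, at 92.6%, 100%, 100% and 96.6% in developmental nulls against 88.0%, 60%, 31.2% and 12.5% in controls, with an adjusted p of 0.0912, or 0.0388 with age as a block. In the other experiments the chr9:121862301-121862400 tile had 16.9%, 15.6% and 17.9% in triple nulls at 7 days against 26.3%, 19.5% and 22.3% in their controls, 36.7% and 33.3% at 13 days against 32.7% and 26.8%, and 33.0%, 36.0% and 31.7% in adult nulls after hepatectomy against 35.2% and 25.9% in their controls. It was therefore low after adult loss in each of those libraries. It had 69.8% and 60.7% in mice with 1 Foxa2 allele left and 44.3% and 61.8% in double heterozygotes.

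The chr17 tile had 81.1%, 87.6%, 80% and 93.2% in developmental nulls, youngest first, against 67.2%, 64.0%, 54.2% and 36.2% in controls (difference 30.1 points, SE 5.58, limma adjusted p = 0.0228). All 4 nulls were above all 4 controls. At 7 days after adult loss it had 69.1%, 72.9% and 73.1% in triple nulls against 82.5%, 81.4% and 80.8% in controls, so there the nulls lay below their controls. The groups overlapped at 13 days, with 79.4% and 77.8% in triple nulls against 83.0% and 71.9% in controls, and after hepatectomy, with 56.1%, 43.8% and 63.0% in adult nulls against 53.6% and 58.2% in controls. It lies in the site chr17:86598379-86598778, between 2 of the sites with the widest WGBS difference named above.

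Of the other tiles named by the rule, 3 had controls that were high at 20 days and low at 6 months. At chr7:36532401-36532500 the developmental nulls had 96.2%, 92.4%, 83.9% and 84.4%, youngest first, against 99.0%, 52.1%, 19.6% and 15.6% in controls. At chr18:59239001-59239100 the developmental nulls had 97.8%, 94.0%, 86.7% and 94.7% against 76.2%, 46.5%, 69.7% and 8.9% in controls. At chr4:123705301-123705400 they had 88.9%, 86.4%, 76.5% and 83.3% against 93.8%, 42.9%, 50% and 22.2% in controls. The chr7 and chr4 tiles were thus at least as methylated in the 20-day control as in the 20-day null, and both were lower in the controls from 8 weeks on.

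The tile chr6:134206501-134206600 went against this order of ages. It had 63.6%, 96.5%, 95.2% and 94.4% in developmental nulls, against 37.1%, 59.6%, 68.4% and 59.1% in controls, so that the 20-day library was the lowest of each genotype. The tile chr15:101752201-101752300 had 56.2%, 73.1%, 72.7% and 75% in developmental nulls, against 55.0%, 40%, 36.4% and 23.1% in controls. The 1 tile with a lower mean in developmental nulls, chr17:36173301-36173400, had 57.1%, 81.2%, 80% and 75% in developmental nulls, against 100%, 83.3%, 91.7% and 91.7% in controls, a difference of -18.3 points. None of these 6 tiles passed limma's threshold in the fit without age, with adjusted p between 0.0743 for the chr6 tile and 0.476 for chr17:36173301-36173400. With age as a block, the chr6, chr18 and chr7 tiles passed it (adjusted p = 0.00465, 0.0332 and 0.0482).

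Within the adult experiments, the named tiles were measured against the controls of each experiment. The chr7:36532401-36532500 tile had 73.2% to 78.6% in triple nulls at 7 days against 66.9% to 68.6% in controls, and 64.4% and 77.4% at 13 days against 58.3% and 60.9%, with the nulls above the controls in both. After hepatectomy its groups overlapped, at 36.8% to 66.1% in adult nulls against 29.4% and 46.6% in controls. The chr18:59239001-59239100 tile had 53.5% to 57.1% in triple nulls at 7 days against 45.1% to 50.3% in controls, and its groups overlapped in the other 2 experiments. The chr9:121862201-121862300 tile had 43.9% to 54.5% in adult nulls after hepatectomy against 26.2% and 43.6% in controls, and its groups overlapped at 7 and 13 days. The chr17:36173301-36173400 tile had 84.2% to 96.9% in adult nulls after hepatectomy against 57.5% and 82.8% in controls, while at 7 days its groups overlapped. At these 4 tiles the nulls thus lay above the controls in at least 1 experiment. By experiment, nulls lay fully above controls at 2 named tiles, fully below at 2 and overlapped at 5 at 7 days. At 13 days these counts were 2, 1 and 5. After hepatectomy nulls lay above at 2 and overlapped at 7. Of all tiles, nulls lay fully above controls at 5.11% at 7 days, 12.9% at 13 days and 8.69% after hepatectomy. At chr9:121862301-121862400 and chr17:86598501-86598600 the nulls lay fully below their controls at 7 days, as at 4.55% of all tiles. At the first of these they lay above them at 13 days. At chr6:134206501-134206600 and chr15:101752201-101752300 the groups overlapped in all 3 experiments, and at chr4:123705301-123705400 they overlapped at 7 days and after hepatectomy, with 1 library a side at 13 days.

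Mice with 1 Foxa2 allele left had 71.4% and 84.6%, and double heterozygotes 64.3% and 81.5%, at chr9:121862201-121862300. At chr18:59239001-59239100 the 4 libraries were all high, with 87.0% and 88.0% for 1 Foxa2 allele and 84.5% and 87.5% for double heterozygotes. At chr7:36532401-36532500 they had 50.9% and 83.0% for 1 Foxa2 allele and 52.5% and 72.2% for double heterozygotes. At chr6:134206501-134206600 the 4 libraries lay between 62.9% and 72.7%, and at chr15:101752201-101752300 between 33.3% and 71.9%. The chr4:123705301-123705400 tile had 55.6% in the only library with a value for 1 Foxa2 allele, and 61.1% and 50% in double heterozygotes. At chr17:36173301-36173400, mice with 1 Foxa2 allele left had 100% and 59.4%, and the 1 double heterozygote with a value had 100%.

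The difference of the age series narrowed within 500 bp of the sites. Within 200 bp of the middle, which holds the same 25 tiles, it was 22.1 points. Between 200 and 500 bp, 45 tiles averaged 86.6% ± 1.24 in developmental nulls and 79.6% ± 3.50 in controls (SD, n = 4 each), a difference of 6.97 points with no overlap between the groups (two-sided exact permutation p = 0.0286, adjusted p = 0.0571 over 6 distances). Between 500 and 1000 bp the difference was 4.92 points (102 tiles), between 1000 and 2000 bp 2.65 points (216 tiles), between 2000 and 5000 bp 1.24 points (733 tiles), and between 5000 and 10000 bp 1.27 points (1257 tiles). None of the 6 distances passed 0.05 after adjustment. In controls the tiles inside averaged 51.5% and those between 200 and 500 bp 79.6%, against 73.6% and 86.6% in developmental nulls. Further out the control levels were 69.7% between 500 and 1000 bp and 51.4% between 1000 and 2000 bp. They were 44.9% between 2000 and 5000 bp and 52.6% between 5000 and 10000 bp. From 1000 bp outward the controls were thus not far from the level inside. Each distance holds other tiles, which were not matched by site. Around the unlisted sites the differences were 5.60 points inside, 3.50 points between 200 and 500 bp, and 1.00 point between 5000 and 10000 bp.

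When Foxa1 and Foxa2 were lost in adult livers that also lacked Foxa3, the tiles differed from their controls by less than the spread between the triple null libraries. At 7 days after Cre, 45 tiles averaged 58.5%, 56.7% and 59.6% in triple nulls, against 58.3%, 57.7% and 58.0% in controls, with overlapping groups. The difference was 0.282 points (two-sided exact permutation p = 0.8, where 3 against 3 cannot go below 0.1). At 13 days, 29 tiles averaged 56.4% and 51.3% in triple nulls, against 54.7% and 55.3% in controls, which differed by -1.11 points (exact permutation p = 1, smallest possible 0.333). After hepatectomy, 46 tiles averaged 53.0%, 59.4% and 59.6% in adult nulls, against 52.8% and 53.2% in controls, which differed by 4.31 points (exact permutation p = 0.4, smallest possible 0.2) and by 0.639 points with the median over tiles. There 2 of the 3 adult nulls lay above both controls and the other lay between them.

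limma called none of the tiles in these 3 adult experiments, at 0 of 45, 0 of 29 and 0 of 46. Of all tiles, it called 0.00125% higher and 0.00291% lower at 7 days, 0.00271% and 0.00475% at 13 days, and 0.00104% and 0.000828% after hepatectomy. Unadjusted p-values under 0.05 were found at 1 of 45, 3 of 29 and 3 of 46 tiles, against 4.1%, 4.68% and 4.67% of all tiles. Nulls lay fully above controls at 6 of 45 tiles at 7 days and fully below them at 5 (all tiles: 5.11% and 4.55%), at 5 and 4 of 29 at 13 days (12.9% and 15.6%), and at 8 and 2 of 46 after hepatectomy (8.69% and 9%). Over the tiles measured in both experiments, the age series difference exceeded that at 7 days by 22.9 points (25 tiles; exact permutation of labels within each experiment, p = 0.0186, adjusted p = 0.0557 over 3), that at 13 days by 23.5 points (20 tiles; exact p = 0.0619) and that after hepatectomy by 18.4 points (25 tiles; exact p = 0.0986). These experiments differ from the age series in mouse age, in Foxa3, in virus and in surgery, and these cannot be told apart here.

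**Figure D4:**
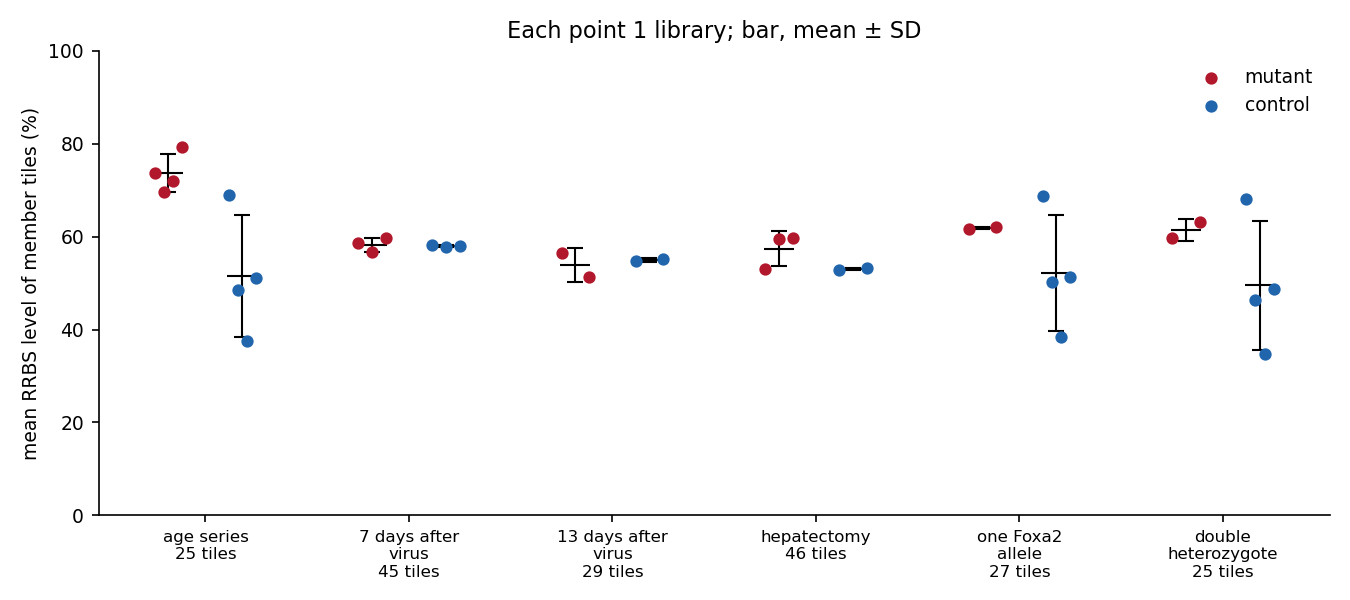
Mean RRBS level in percent of the tiles inside the sites, 1 point per library, mutant left and control right in each comparison, with the mean ± SD and the number of tiles measured in every library of that comparison. The age series controls also serve the 2 comparisons on the right. Developmental nulls lie at 69.5% to 79.2% above their controls at 37.6% to 69.0%, and the adult loss groups lie within a few points of their controls.

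Mice that kept 1 or more alleles of Foxa1 or Foxa2 had mean levels between those of the developmental null and the control of the same age. Over 25 tiles measured in all the 8-week libraries, the mean was 80.2% in the developmental null, 61.3% and 63.5% in the mice with 1 Foxa2 allele left, 60.7% and 65.04% in the double heterozygotes, and 50.4% in the control. All 4 libraries of these mice thus lay at least 15.2 points under the null and at least 10.3 points above the control, a single library. Between 19 and 23 of the 25 tiles were above the 8-week control in these 4 libraries, and between 20 and 25 were below the developmental null. The means of the other listed sites had the same order. At 46 tiles of listed sites of 20% to under 40%, the 4 libraries were 2.89 to 8.84 points above that control and 17.4 to 23.4 points under the null. At 57 tiles of listed sites below 20% they were 2.57 to 5.78 points above it and 16.3 to 19.5 points under the null. Tile counts were less uniform there. The 4 libraries were above that control at 23 to 35 of the 46 tiles. They were above it at 23 to 34 of the 57 tiles and below it at 21 to 31. More of the 57 were below than above in 1 library of each genotype (28 against 25 with 1 Foxa2 allele, 31 against 23 in double heterozygotes). At 203 unlisted tiles the 4 libraries were within 2.03 points of that control, whose level there was 44.7%. With 1 control and 1 null at 8 weeks, this order was not tested.

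Against all 4 controls of the age series, which span the ages, the test gave no call. The 27 tiles with values averaged 61.9% ± 0.257 in mice with 1 Foxa2 allele left (n = 2) and 52.1% ± 12.5 in controls (n = 4), a difference of 9.73 points (two-sided exact permutation p = 0.4, smallest possible 0.133). Double heterozygotes averaged 61.4% ± 2.38 (n = 2) against 49.5% ± 13.9 (n = 4) over 25 tiles and thus differed by 11.9 points (exact permutation p = 0.4). Both pairs fell between the 20-day control and the older controls. Without the 6-month control the differences were 5.12 and 6.50 points, and without the 20-day control 15.7 and 15.5 points. limma called 1 of 27 tiles higher with 1 Foxa2 allele left (0.106% of all tiles higher, 5.9% lower) and 0 of 25 in double heterozygotes (0.12% higher, 5.97% lower). Unadjusted p-values under 0.05 were found at 6 of 27 and 5 of 25, against 19.5% and 19.3% of all tiles. The called tile, chr16:62873101-62873200, had 100% and 100% in mice with 1 Foxa2 allele left, against 87.5%, 78.9%, 80% and 76.2% in controls from the youngest to the oldest (adjusted p = 0.0328). Tiles outside FoxA sites averaged 57.8% and 58.4% in these 2 genotypes against 59.4% and 59.7% in the controls, so the libraries were lower there and not higher.

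HNF6 peaks were rare at the sites in every list. A peak overlapped 1 and 0 of the 693 sites in the 2 developmental null lists, 9 and 12 in the 2 adult null lists, and 18, 9 and 1 in the 3 control lists. The list of control 1 thus held 2.60% of the sites (Wilson 95% interval 1.65% to 4.07%), that of control 3 held 0.144% (0.0255% to 0.813%), and the 0 of developmental null 2 allows a share of up to 0.433% (3 counts of 693). The intervals cover counting error only. In all, 665 of the 693 sites had no peak in any list. The lists held 3122 and 1188 peaks in developmental nulls, 4028 and 5678 in adult nulls, and 5767, 4652 and 1770 in controls.

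The share of sites with a peak averaged 0.0722% ± 0.102 in developmental nulls (n = 2), 1.52% ± 0.306 in adult nulls (n = 2) and 1.35% ± 1.23 in controls (n = 3). Developmental nulls were 1.27 points under controls (difference -1.27, two-sided exact permutation p = 0.4, smallest possible 0.2), and their higher value equalled the lowest control. With the same number of strongest peaks from each list, 1188, the difference was -0.337 points, and it was -0.649 without control list 1 and -1.88 without control list 3. Over all FoxA sites the shares were 1.31% in developmental nulls and 5.54% in controls, a difference of -4.23 points. It was -1.70 points at unlisted sites of like control level. At listed sites of 20% to under 40% and below 20% it was -2.30 and -2.87 points. Fewer peaks in developmental null lists were thus not particular to these sites. At the 693 sites adult nulls differed from controls by 0.168 points (exact permutation p = 1), and over all FoxA sites by 1.82 points. The adult lists came from another version of the peak caller and have wider peaks, with median widths of 307 and 320 bp against 82 to 150 bp in the other lists, so shares are compared across callers there. In the 3 control lists the share at these sites was below that of unlisted sites of like control level, with a mean difference of -0.604 points, and below that of all FoxA sites, with a mean difference of -4.19 points (exact sign-flip test over 3 lists, p = 0.25 for both, the smallest possible).

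**Figure D5:**
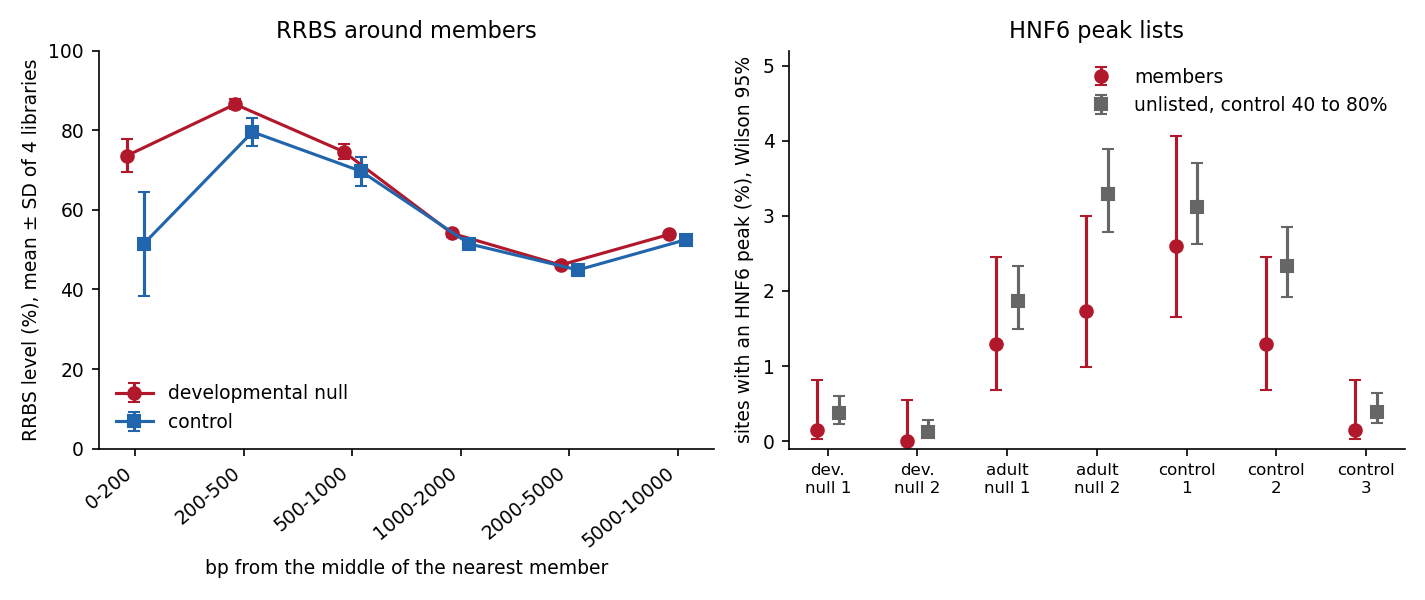
Left, RRBS level in percent by distance in bp from the middle of the nearest site, mean ± SD of 4 libraries of developmental nulls (circles) and of controls (squares). Right, percent of sites with an HNF6 peak in each list with Wilson 95% intervals, for the 693 sites (circles) and for unlisted sites with a control level of 40% to under 80% (squares). The RRBS difference is 22.1 points within 200 bp and 6.97 points between 200 and 500 bp, and no list has a peak at more than 2.60% of the 693 sites.

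Only chr1:193282610-193283009 had a peak in all 3 control lists, with the authors' fold enrichments of 19.4, 20.5 and 6.00. It also had a peak in developmental null 1 with a fold of 6.66 and in both adult nulls with 20.8 and 22.5. Its WGBS levels were 63.6% and 73.6% in developmental nulls against 45.3% and 45.4% in controls, and it lies outside the adult methylation table. Folds come from separate lists and were not compared. Another 7 sites had a peak in 2 control lists, and none of them had one in a developmental null list. These 8 sites averaged 78.7% in developmental nulls against 49.2% in controls, like the whole group. The 665 sites without any peak averaged 79.9% in developmental nulls against 52.1% in controls.

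Both adult null lists had peaks at 4 of these 8 sites. Beside chr1:193282610-193283009 these were chr15:8274132-8274531, chr3:40742447-40742846 and chr7:141944893-141945292, named here after their values were seen. At the chr15 site the levels were 36.6% and 33.2% in adult nulls against 43.6% and 40.7% in controls. Of the 47 sites with an RRBS tile, none had a peak in a control list. The only 1 with a peak in any list was chr15:41809297-41809696, also named after its values were seen, which had peaks in both adult null lists and in no other, with WGBS levels of 50% and 33.5% in adult nulls against 43.6% and 48.9% in controls.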

How the data were processed

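The deposited WGBS tables give a fraction per 400 bp site and the deposited RRBS table a fraction per 100 bp tile, without coverage; both were multiplied by 100. Reads were handled with Trim Galore 0.3.3 and BSMAP 2.74 on mm9, per the submitters' processing notes. The step from reads to a value per site or tile is not described in the labels. For HNF6, each library was set against its own input with MACS 2.1.1 for controls and developmental nulls and MACS 1.4.3 for adult nulls, per the file headers. The peak lists hold a fold enrichment (a ratio), a −log10 p-value (MACS 2.1.1) or a score of -10 times log10 of the p-value (MACS 1.4.3), as the authors deposited them; p-values and scores only ranked peaks within a list. A peak of 1 bp overlap counted. The authors' 8 RRBS group averages were not used. A column of the adult table, headed as developmental null 1, equalled control 2 at each of the 28654 shared sites and served no other purpose.

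A tile belonged to a site when its middle lay inside. Mean levels per library, over tiles measured in every library of a comparison, entered exact permutation tests, all two-sided (scipy 1.17.1). Tiles and sites were tested with limma 3.58.1 (R 4.3.3) on levels in percent, with a trend in the variance, and adjusted over all tiles or sites by Benjamini-Hochberg (threshold 0.05); the spread came from all 27 RRBS or 6 WGBS libraries. The fit was tested on simulated data. Sites were named by a rule: the 6 widest developmental differences, 3 sites on each side of the 40% limit, the 4 highest and 4 lowest adult differences, the 6 widest positive and 3 widest negative RRBS tiles (only 1 region had a negative one), up to 8 sites with an HNF6 peak in all 3 control lists and up to 6 with a tile and a control peak (there were none), 1 per separate region; the tiles called by limma were added. The sites, classes and lists were chosen with earlier results of these data known. HNF4A and H3K27ac libraries were not analysed here. No mm9 genome was used here, so no sequence or gene is given.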

Additional observations from a re-analysis of the deposited data

Results flagged for a closer look

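At chr6:134206501-134206600 the 20-day developmental null, at 63.6%, stood apart from the other 3 developmental nulls at 94.4% to 96.5%. At chr15:101752201-101752300 the 20-day developmental null, at 56.2%, stood apart from the other 3 at 72.7% to 75%. Both are gaps between the lowest library and the next that pass Dixon's 95% limit for 4 libraries, and chance passes about 1 in 20 groups, where 22 groups were tested. The age series difference over the tiles inside the sites exceeded that 7 days after adult loss by 22.9 points (exact permutation within each experiment, p = 0.0186, adjusted p = 0.0557 over 3 experiments).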

How the results depend on the processing

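The age series difference of the tiles kept its sign in all alternatives. With the median over tiles it was 26.7 points and missed 0.05 (exact permutation p = 0.0571, where 0.0286 was possible). In alternatives whose smallest p exceeds 0.05 it was 16.1 to 27.9 points without 1 library each and 27.3 points without both 20-day libraries (an alternative chosen after seeing the data). With a replicate block by age it was 22.1 points, and the difference against unlisted sites 16.5 points (exact sign-flip p = 0.125 for both, the smallest 4 ages allow); the block also gave 8 limma calls. Deviations of same-age libraries from their group means correlated with 0.366, 0.109, 0.149 and 0.0600, all positive. The main test did not take ages as pairs, and the block by age is the test that does. The difference against unlisted sites was 12.5 to 18.8 points without 1 library each and 20.1 points without the 20-day pair. Of 25 tiles limma called 2, against 6 on the logit scale, 0 with the spread of only the 2 groups, and 1 to 10 without 1 library each. Of all 369462 tiles it called 650, 1023 and 0 higher in the first 3 of these settings. With the spread of only the 2 groups, no tile anywhere was called in either direction. Where 10 were called, without the 20-day control, 1388 of all 375061 tiles were called higher. Uncalled adult values near 0 changed sign: at 7 days -2.62 points over the 20 tiles in all 27 libraries, -1.67 points by medians and -0.165 to 1.201 without 1 library each; at 13 days 0.171 with each control at 40% or more, 1.42 over the 20 tiles, 2.09 by medians and -2.89 to 1.53 without 1 library each. For HNF6 the adult null minus control share was -0.144 points with overlap of 50% of the peak, -0.216 with the summit inside, -0.0305 with each control at 40% or more, -0.433 with a replicate block and -0.433 to 0.794 without 1 list each. The causes were not tested. Other alternatives changed no call, those with a replicate block at 7 days, 13 days, hepatectomy and WGBS included. The WGBS adult difference was 0.903 to 4.37 points without 1 library each. Levels come without coverage, so precision at single tiles is unknown, and 2 or 3 libraries a group cannot pass 0.05 in a permutation test.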

Other observations

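The 693 sites fell into 516 of the 2078 windows of 1 Mb that held a FoxA site, and 405 of those windows held a single separate region of them. The windows with most were chr18:12000001-13000000 and chr2:37000001-38000000, with 5 separate regions each, among 62 FoxA sites in the chr18 window and 23 in the chr2 window. On chr17, the window from 86000001 to 87000000 held 3 of the sites, namely chr17:86467725-86468124, chr17:86598379-86598778 and chr17:86818533-86818932, whose developmental null levels averaged 94.0%, 92.6% and 90.7% against 40.1%, 71.5% and 42.4% in controls. These windows were picked after their values were seen and are given with no test.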
